A study of Mus musculus with 10 samples.

Results

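The miRNAs of wild-type mouse E14 embryonic stem cells are described here from the 2 wild-type libraries, of 10 in the series, and from all 1907 mature miRNA entries listed for them. The libraries were chosen by their labels alone, WT_1 with the column name E14_P25 and WT_2 with E14_P33, and are called P25 and P33 below. The labels do not say what the letter P stands for, nor whether the libraries came from separate cultures. E14 is a line of embryonic stem cells from a blastocyst of the 129/Ola mouse strain, and both libraries carry the wild-type genotype. The medium was DMEM with 15% serum and, as the cytokine that holds mouse stem cells undifferentiated, LIF at 100 U/mL, on plates coated with 0.2% gelatine. RNA was taken up in Trizol, 1 ug of total RNA per library went into the TruSeq small RNA kit, and an Illumina HiSeq machine read the libraries. The other 8 libraries are mutants of the RNAi pathway and are not compared here. With 1 group and no contrast, no test was run, and every error below is the SD over the 2 libraries (n = 2) unless it is named otherwise.

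A miRNA is cut from a hairpin in a longer transcript, first by the Microprocessor in the nucleus and then by Dicer in the cytoplasm. The resulting duplex has a strand from the 5' arm (5p) and a strand from the 3' arm (3p) of the hairpin, and an Argonaute protein keeps mostly one of them as a guide. The guide finds messenger RNAs chiefly through its seed, the bases from position 2 to 8, so miRNAs that share a seed can share targets even when they come from different genes. Many hairpins lie side by side in one transcript, a polycistron, and in mouse embryonic stem cells the best known of these is the miR-290 to miR-295 cluster, which is tied to the rapid cell cycle of these cells.

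The sequences below are those that carried most of the counts, with relatives that share or nearly share their seeds. They come from RefSeq on GRCm38.p6 and are written 5' to 3', with the seed (bases 2 to 8) in capitals. The first set shares the seed AUUGCAC and comes from 5 hairpin genes.
miR-92a-3p: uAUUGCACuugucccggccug
miR-25-3p: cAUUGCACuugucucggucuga
miR-363-3p: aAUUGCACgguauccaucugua
miR-92b-3p: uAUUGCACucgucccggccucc
The next set holds 3p strands of the miR-290 to miR-295 and miR-302 clusters, most with the seed AAGUGCU. In it miR-290a-3p and miR-293-3p carry other seeds.
miR-295-3p: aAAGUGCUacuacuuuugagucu
miR-294-3p: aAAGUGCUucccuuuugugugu
miR-291a-3p: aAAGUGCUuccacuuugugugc
miR-302d-3p: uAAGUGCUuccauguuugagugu
miR-290a-3p: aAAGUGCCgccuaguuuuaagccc
miR-293-3p: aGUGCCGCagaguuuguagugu
The following 5p strands of the stem cell cluster share another seed, CUCAAAC.
miR-292a-5p: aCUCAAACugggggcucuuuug
miR-293-5p: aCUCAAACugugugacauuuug
miR-290a-5p: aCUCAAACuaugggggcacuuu
The 5p strands of the miR-183, miR-96 and miR-182 polycistron are shown because each has its own seed.
miR-183-5p: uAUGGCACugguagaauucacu
miR-96-5p: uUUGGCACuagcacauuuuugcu
miR-182-5p: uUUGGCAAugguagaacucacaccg
The last set gives the leading strand of the imprinted Dlk1-Dio3 region and 2 strands of the miR-17 seed family, whose seed AAAGUGC holds the letters AAGUGC 1 base further in than miR-295-3p does.
miR-127-3p: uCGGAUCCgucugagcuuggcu
miR-17-5p: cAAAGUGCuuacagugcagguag
miR-93-5p: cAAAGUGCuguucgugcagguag

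The column totals were 2357868 counts in P25 and 1943868 in P33, and they cover miRNA entries only. Levels are given as CPM, counts scaled to a column total of 1000000, where 1 count was worth 0.424 CPM in P25 and 0.514 CPM in P33. A count of 0 allows a level of up to 1.27 CPM in P25 and 1.54 CPM in P33, taken as 3 counts. Such floors and the 95% Clopper-Pearson intervals below cover counting error only, and the reads carry no molecular identifiers. CPM values are not divided by length, since mature strands are of nearly the same length, but ligation and amplification can favour some sequences, so a higher CPM between 2 miRNAs is a higher read count and was not tested as a higher number of molecules.

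A small number of miRNAs held most of the repertoire. Of the 1907 entries, 968 had a count in P25 and 916 in P33, 829 had one in both, and 852 had none in either. The single highest entry took 15.1% of the counts in P25 and 16.1% in P33, the 4 highest took 45.6% and 46.6%, and the 10 highest took 60.4% and 60.5% (60.5% ± 0.0658). It took 6 entries to pass 50% of the counts, 58 to pass 90% and 233 to pass 99%. At the other end, 331 entries that were counted at a mean under 1 CPM held 0.0146% ± 0.000878 of the counts together. In all, 22 entries averaged at least 10000 CPM, 84 at least 1000, 237 at least 100 and 459 at least 10.

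The highest entry was miR-92a-3p, which is made by the miR-17-92 and the miR-106a-363 polycistrons. It had 150940.2 CPM in P25 and 161093 CPM in P33 (156017 ± 7179). miR-182-5p of the miR-183 cluster followed with 125617 and 120284 CPM (122951 ± 3771), then miR-295-3p of the stem cell cluster with 98301 and 104755 CPM (101528 ± 4564). The fourth was miR-127-3p, a maternally expressed miRNA of the Dlk1-Dio3 region, with 81585 and 79577 CPM (80581 ± 1419). These 4 kept their order in both libraries and stood apart from the rest, for the fifth, miR-26a-5p, had 29011 and 27288 CPM. From there the order was close: miR-16-5p, which restrains cyclins of the cell cycle, averaged 24594 CPM ± 1362, miR-22-3p 23468 ± 1921, miR-292a-5p 23294 ± 414, miR-541-5p 23241 ± 368 and miR-183-5p 20699 ± 1438. The means of miR-16-5p, miR-22-3p, miR-292a-5p and miR-541-5p differed by less than the SD of miR-16-5p, so their order is not set by these libraries. The remaining entries of the 20 highest ran from miR-27b-3p with 15856 CPM ± 1222 to miR-293-5p with 10726 ± 581. They also held miR-191-5p, miR-411-5p, miR-292a-3p, miR-294-3p, miR-291a-5p, miR-148a-3p, miR-434-3p and miR-410-3p. The plot of level by rank shows the step after the fourth entry in both libraries.

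**Figure D1:**
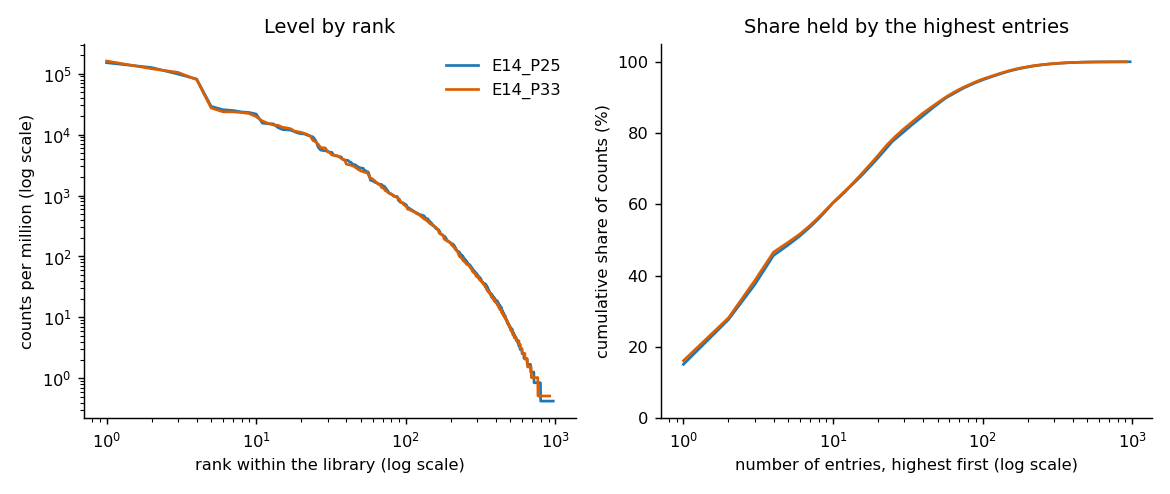
Left, CPM of each counted entry against its rank within its library, both on log scales. Right, the cumulative share of counts (%) against the number of entries taken from the highest down. Blue is E14_P25 and orange is E14_P33. The lines lie on each other, drop after the fourth entry and pass 90% of the counts at 58 entries in P25 and 57 in P33.

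The rank of miR-92a-3p depends on how reads with several genomic places were counted. Its hairpins lie at chr14:115044427-115044506 on the + strand, in an exon of the lncRNA gene Mir17hg, and at chrX:52741838-52741928 on the - strand, in no other annotated gene (mm10, the build of GRCm38). How the authors counted a read with 2 places is not given in the sources used here. Some entries held only multiples of a number: 42 of 865 entries with counts in at least 3 of the 10 libraries did, and for 23 of them that number was the number of hairpin places, as with miR-669a-5p (12) and miR-467a-5p (10). miR-92a-3p had an odd count of 355897 in P25, which is no multiple of 2. With every entry's counts divided by its number of places, miR-92a-3p had rank 4, with 8.92% ± 0.403 of the counts, behind miR-182-5p with 14.1% ± 0.442, miR-295-3p with 11.6% ± 0.512 and miR-127-3p with 9.21% ± 0.17. Such entries with several places number 76, and they held 24.1% ± 0.123 of all counts.

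Counts came mostly from clustered hairpins. Grouped by position, with gaps of at most 10 kb on 1 strand, 98 clusters of at least 2 hairpins held the entries with 87.7% ± 0.621 of the counts, and the 5 highest clusters held 61.7% ± 1.33. By gene context in GENCODE M21, 29.5% ± 0.852 of the counts came from hairpins antisense to a gene, led by miR-295-3p. Another 25.3% ± 0.734 came from hairpins in no other gene, led by miR-182-5p, and 22.1% ± 0.499 from entries with several places of different kinds, led by miR-92a-3p. Introns of coding genes held the most entries, 851, but 8.6% ± 0.55 of the counts, with miR-30e-5p in Nfyc as the highest. Exons of coding genes held 6.28% ± 0.134 of the counts, and miR-22-3p was the highest there. Chromosomes 7, 12 and 6 gave 19.5% ± 0.936, 19.3% ± 0.0367 and 15.9% ± 0.621 of the counts.

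**Figure D2:**
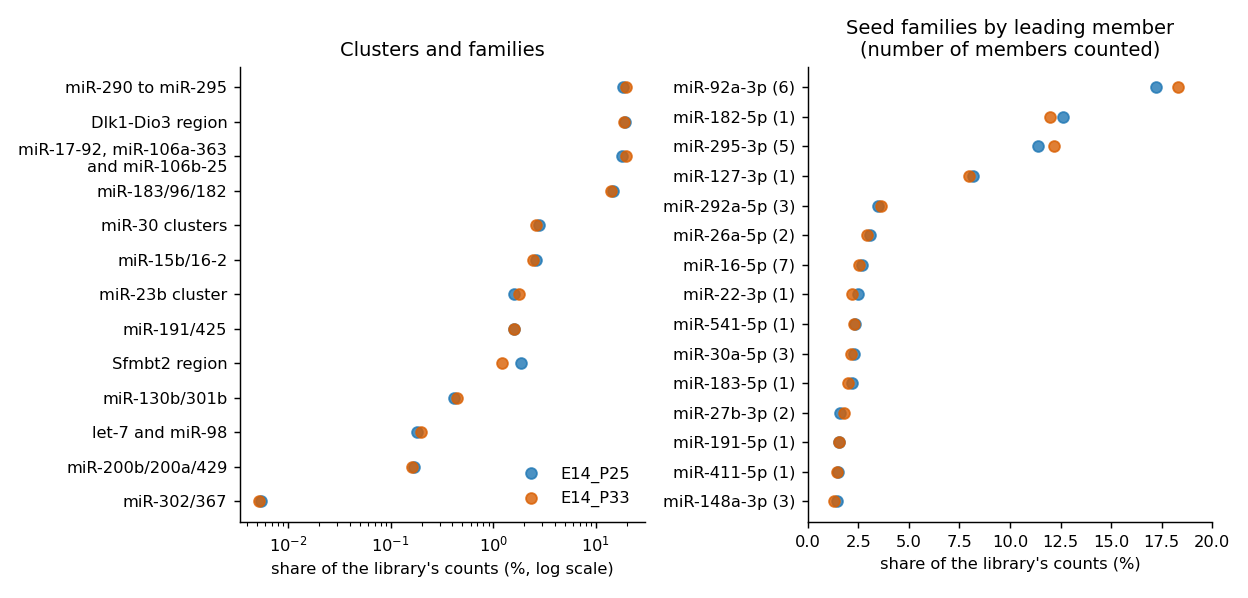
Share of a library's counts (%) held by clusters and families (left, log scale) and by the 15 seed families with the highest share (right), each named by its leading member with the number of members counted. Each dot is 1 library, blue for E14_P25 and orange for E14_P33. The miR-290 to miR-295, Dlk1-Dio3 and miR-17 clusters each sit near 19%, and the Sfmbt2 region has the most separate dots among the shares above 1%.

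The miR-290 to miR-295 cluster at chr7:3218626-3220841 (+), the main stem cell cluster of the mouse, held 18.5% of the counts in P25 (95% interval 18.4 to 18.5) and 19.8% in P33 (19.8 to 19.9), a mean of 19.1% ± 0.96. All 14 of its sense-strand entries passed 100 CPM, and miR-295-3p alone made up 53.1% of the cluster. Taken as both arms together, its 7 hairpins were far from equal along the transcript. miR-290a, the first, had 1495 CPM in P25 and 1816 in P33, miR-291a had 16294 and 17438, and miR-292a had 35066 and 37764. miR-291b, in the middle of the transcript, was the lowest with 656 and 704 CPM. After it came miR-293 with 20058 and 21592 CPM, miR-294 with 12111 and 13509, and miR-295, the last and highest, with 98871 and 105301. The highest hairpin exceeded the lowest 151-fold in P25 and 149.6-fold in P33, and of the 7 hairpins miR-290a differed most between the libraries. The order of the 7 hairpins was the same in both libraries. The hairpins miR-290b and miR-292b, annotated on the opposite strand, had 0 and 0 counts and 2 and 1 counts.

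The cluster of miR-302 and miR-367, which carries the AAGUGCU seed in primed mouse and in human pluripotent cells, was nearly silent here. It held 0.00539% of the counts in P25 and 0.00514% in P33 (0.00527% ± 0.000171), from 127 and 100 counts. miR-302a had 53 and 28 counts over both arms, miR-302b 34 and 27, miR-302d 34 and 43, miR-302c 1 and 1, and miR-367 5 and 1. The first 3 lie above the floor of 3 counts in both libraries and overlap in level, while miR-302c lies below it in both.

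The 3 polycistrons of the miR-17 family, which promote proliferation, held 18.2% of the counts in P25 and 19.5% in P33 (18.9% ± 0.914), with miR-92a-3p making up 82.7% of that. Divided by the number of places, their share was 12.5%. The miR-17-92 cluster at chr14:115043671-115044506 (+) and the miR-106a-363 cluster at chrX:52741693-52742567 (-) each include miR-92a-3p and miR-19b-3p. Leaving these shared entries out, they held 0.553% ± 0.0857 and 0.895% ± 0.0955 of the counts. Which cluster the miR-92a-3p reads came from cannot be told apart from the mature sequence. The 5p strands are distinct: miR-92a-1-5p of miR-17-92 had 1511 CPM in P25 and 2453 in P33, while miR-92a-2-5p of miR-106a-363 had 19 and 28 counts.

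Within miR-17-92, miR-17 had 1719 CPM in P25 and 1809 in P33, miR-18a 541 and 566, miR-19a 352 and 369, and miR-20a 803 and 937. The hairpins at the 3' end were higher, with 2449 and 2670.4 CPM for miR-19b-1 and 152451 and 163546 for miR-92a-1, both with shared entries. The spread from miR-19a to miR-92a-1 was 439-fold, or 8.78 on the log2 scale. It was 2.46 on that scale with the shared entries left out, where miR-92a-1 was kept through its other strand alone. In miR-106a-363, miR-106a had 1097 and 1151 CPM, miR-18b 769 and 938, and miR-20b 1033 and 1106, levels close to their relatives on chromosome 14. miR-363, the last hairpin, stood above them with 5348 and 6394 CPM. The third cluster, miR-106b-25 at chr5, is held within the gene Mcm7, a subunit of the replicative helicase, and took 1.55% of the counts in both libraries. Its levels were higher toward the 3' end, from miR-106b with 1089 and 1178 CPM over miR-93 with 3984 and 3999 to miR-25 with 10463 and 10353, a spread of 9.18-fold. Among hairpins without shared entries, miR-363 and miR-25, which both give a strand with the AUUGCAC seed and lie at the 3' end, were the highest of their clusters.

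**Figure D3:**
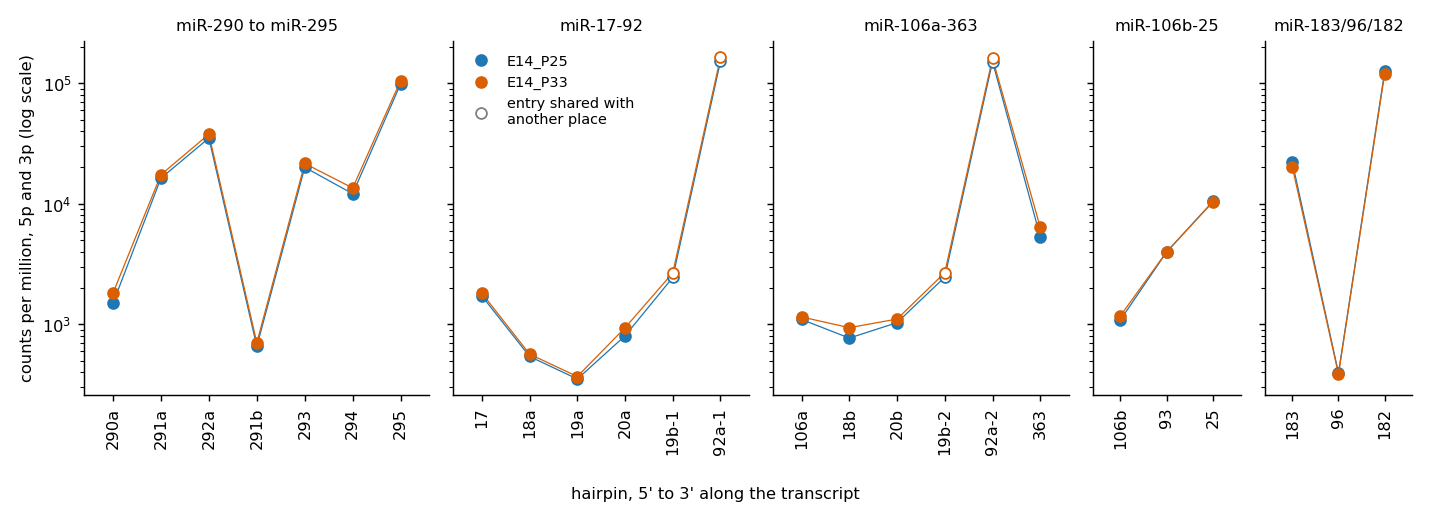
CPM of both arms together (log scale) for each hairpin of 5 polycistrons, ordered 5' to 3' along the transcript. Blue is E14_P25, orange is E14_P33, each dot is 1 library, and open dots are hairpins with a mature entry shared with another place. The 2 libraries follow the same profile in each cluster, with miR-291b and miR-96 as low points between higher neighbours.

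The cluster of miR-183, miR-96 and miR-182 at chr6:30165918-30169737 (-), best known from sensory cells of the eye and ear, held 14.8% of the counts in P25 and 14.1% in P33 (14.5% ± 0.515). miR-182 had 125661 and 120353 CPM over both arms, miR-183 had 22212 and 20242, and miR-96, between them, had 395 and 387. miR-182 thus exceeded miR-96 318-fold in P25 and 311-fold in P33, although both come from 1 transcript. miR-96 differed between the libraries by far less than it did from its neighbours.

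The imprinted Dlk1-Dio3 region at chr12:109544541-109747960, whose miRNAs are made from noncoding transcripts of the maternal allele, held 19.1% of the counts in P25 and 19.0% in P33 (19.1% ± 0.0313). Of its 59 hairpins with an entry, 48 averaged at least 10 CPM, 40 at least 100 and 16 at least 1000, and 6 had no count. The broad expression of the region was thus carried by many hairpins, but miR-127-3p made up 42.3% of its counts. Hairpins antisense to Rtl1, a retrotransposon-derived gene that these miRNAs can target, held 10.3% ± 0.00985 of all counts. Among them miR-127 had 81808 and 79815 CPM over both arms, miR-434 12807 and 14486, miR-431 4174 and 4402, miR-136 3692 and 3560.4, and miR-433 995 and 1074. Hairpins of Mirg, the distal noncoding gene, held 4.34% ± 0.0535, led by miR-541 with 23503 and 22988 CPM, miR-410 with 10608 and 10866 and miR-409 with 6186 and 6952. Others of the same gene were low, as miR-154 with 62.8 and 70.0 CPM and miR-668 with 102 and 126. Those in no other annotated gene held 3.98% ± 0.088, with miR-411 at 15645 and 14949 CPM and its neighbour miR-379 at 723 and 695. Rian held 0.384% ± 0.0132 and Meg3, through miR-770, 0.00466% ± 0.000188.

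Among the other polycistrons, the distance between members ran over a wide range. miR-16-2 exceeded miR-15b 41.3-fold and miR-16-1 exceeded miR-15a 85.4-fold, but miR-16-5p is shared by both places. In the miR-23b cluster, miR-27b had 15097 and 16891 CPM and miR-23b 279.9 and 378, a 48.6-fold difference. The paralogous miR-23a cluster was more even, with miR-27a at 1014 and 1055 CPM and miR-23a at 256 and 236, or 4.21-fold. miR-191 exceeded miR-425 28.7-fold, miR-200b exceeded miR-200a 5.26-fold, and miR-130b exceeded miR-301b 4.35-fold. In the miR-322 cluster, the 6 hairpins with at least 20 counts spanned 5.7-fold up to miR-351 with 467 and 655 CPM, and miR-503, under that minimum, had 7 and 12 counts.

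Grouping by seed joined several of these clusters. The 1623 entries with a sequence, which held 94.4% ± 0.483 of the counts, carried 1352 seeds, of which 746 were counted, and the 4 highest seeds held 49.3% of all counts in P25 and 50.6% in P33. The AUUGCAC family (miR-92a, miR-25, miR-92b, miR-363, miR-32 and miR-367) was first with 17.2% in P25 and 18.3% in P33 (17.8% ± 0.819), and miR-92a-3p gave 87.9% of it. UUGGCAA, with miR-182-5p as its only member, averaged 12.3% ± 0.377. The stem cell seed AAGUGCU had 11.4% and 12.2% (11.8% ± 0.569), 85.7% of it from miR-295-3p, so it lay behind UUGGCAA in P25 and ahead of it in P33. Adding AAGUGCC gave 11.9% ± 0.589, and counting every entry with AAGUGC within bases 1 to 8, as in miR-17-5p and miR-93-5p, gave 12.8% ± 0.613. miR-292a-3p and miR-302a-3p have no sequence in the table used and are in none of these sums. miR-292a-3p averaged 13121 CPM, or 1.31% of the counts, and miR-302a-3p had 44 and 19 counts. The sum of any seed they carry is therefore too low.

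The 5p strands of the stem cell cluster formed a family as well. CUCAAAC, carried by miR-292a-5p, miR-293-5p and miR-290a-5p, held 3.45% and 3.6% of the counts (3.53% ± 0.103), and miR-291a-5p and miR-291b-5p share AUCAAAG, with 1.3% ± 0.0658. The miR-17 seed AAAGUGC, borne by 6 counted members, held 0.906% ± 0.0232, so it lay well below AUUGCAC although both come from the same transcripts. In several families 1 strand led: miR-26a-5p gave 94.2% of UCAAGUA, miR-16-5p 94.6% of AGCAGCA and miR-148a-3p 90.1% of CAGUGCA. The miR-30 family was more even, with miR-30a-5p giving 37.8% of GUAAACA. That sum leaves out miR-30d-5p, with a mean of 3289.9 CPM, and miR-30b-5p, with 449 CPM. Other single-member seeds among the 10 highest were those of miR-127-3p with 8.06% ± 0.142, miR-22-3p with 2.35% ± 0.192 and miR-541-5p with 2.32% ± 0.0368.

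The strands that carried the counts more often began with U than the entries did as a whole. U was the first base of 40.2% of the 1623 entries with a sequence and of 58.3% and 58.0% of all counts in P25 and P33. A began 25.5% of the entries and 26.0% and 26.8% of the counts. G and C were less common in the counts, with 2.41% ± 0.00295 against 13.1% of the entries for G and 7.44% ± 0.0352 against 21.2% for C. The shares of counts do not sum to the whole because entries without a sequence stay in the total.

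Most hairpins gave counts from 1 arm. Of 747 hairpins with both arms listed, 276 averaged at least 20 counts. In 78 of them the 5p strand held at least 90% of the counts in both libraries, in 89 the 3p strand did, and in 109 neither did. For 62 hairpins 1 arm held at least 99% in both. Over all 276 the 5p strands held 46.3% of the counts in P25 and 45.1% in P33, and the lesser arms 6.34% and 6.69%. These sums leave out miR-92a-3p, miR-26a-5p and miR-16-5p, whose other arms are listed under names of their own, with 15.6%, 2.81% and 2.46% of all counts. Over all entries named 5p or 3p, the 5p strands held 41.9% and 40.5% of all counts and the 3p strands 57.1% and 58.7%.

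The hairpins of 3 of the most counted miRNAs and of the most even one among the 100 most counted hairpins show the range, with the annotated 5p and 3p strands in capitals (RefSeq, GRCm38.p6).
Mir182: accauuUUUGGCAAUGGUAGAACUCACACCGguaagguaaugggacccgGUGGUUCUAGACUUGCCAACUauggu
Mir127: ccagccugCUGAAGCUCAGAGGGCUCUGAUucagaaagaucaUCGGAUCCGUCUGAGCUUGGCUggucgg
Mir295: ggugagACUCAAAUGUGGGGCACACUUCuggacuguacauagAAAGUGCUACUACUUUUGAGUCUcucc
Mir293: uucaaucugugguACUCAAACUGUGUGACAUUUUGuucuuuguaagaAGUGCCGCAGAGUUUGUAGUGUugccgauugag
Mir182 gave 296189 counts of its 5p strand and 104 of its 3p strand in P25, and 233817 and 134 in P33. Mir127 and Mir295 went the other way, with 5p shares of 0.273% and 0.298% for miR-127 and of 0.577% and 0.519% for miR-295. Mir293 gave both strands alike, with 24321 5p and 22972 3p counts in P25 and 21649 and 20323 in P33, a 5p share of 51.4% (95% interval 51.0 to 51.9) and 51.6% (51.1 to 52.1).

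Arm use differed from hairpin to hairpin within the stem cell cluster. miR-290a had 5p shares of 81.1% and 69.4%, miR-291a 73.6% and 73.9%, miR-292a 65.6% and 62.5%, and miR-291b 79.0% and 78.2%. miR-294 had 2.59% and 2.74%, near miR-295. The first 4 hairpins of the transcript therefore leaned to 5p, miR-293 was balanced, and the last 2 gave almost only the 3p strand with the AAGUGCU seed. In the miR-17 clusters, miR-17 (90.6% and 89.8%), miR-20a (95.2% and 92.3%) and miR-93 (97.3% and 96.8%) were mostly 5p, and miR-25 (2.18% and 2.94%) and miR-363 (4.3% and 4.77%), the hairpins with the AUUGCAC seed, were mostly 3p. miR-106b was near balance with 58.7% and 58.6%. All 3 hairpins of the miR-183 cluster were 5p-dominant.

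In the Dlk1-Dio3 region 48 hairpins had at least 20 counts, of which 35 leaned to 3p and 13 to 5p, beside 140 and 136 of all 276 hairpins. In it 23 were 3p-dominant and 6 were 5p-dominant. miR-410, with 3p counts of 24983 and 21104 and 5p counts of 29 and 18, is one of the former, and miR-541, with 55413 and 44673 5p counts and 3 and 12 3p counts, one of the latter. Among the 100 most counted hairpins, the most even after miR-293 and miR-106b were miR-210, a hypoxia-induced miRNA, with 5p shares of 40.9% and 38.9%, miR-369 with 38.6% and 40.2%, and miR-872 with 64.1% and 62.8%.

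**Figure D4:**
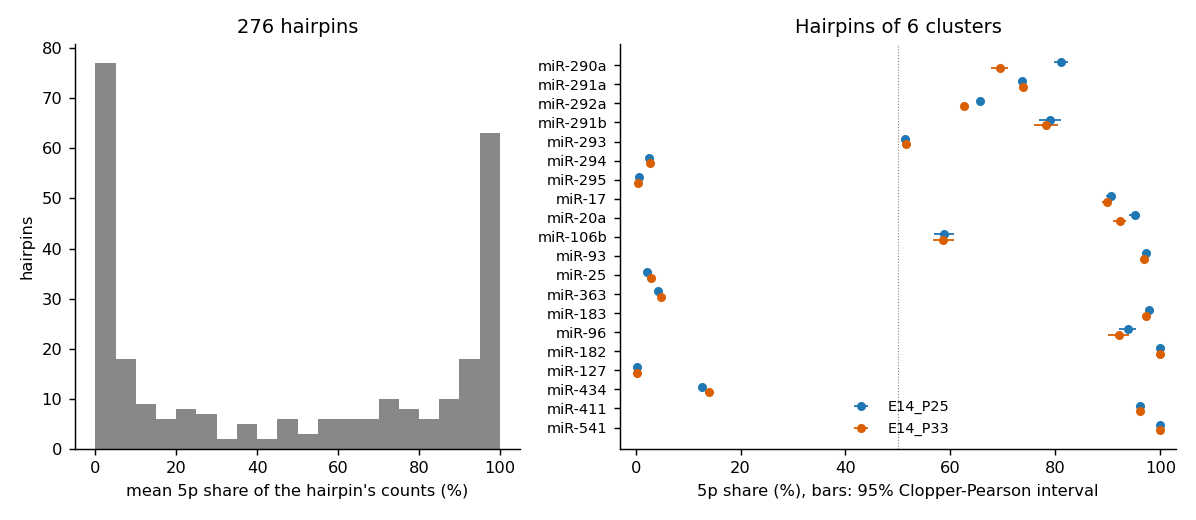
Left, number of hairpins by mean 5p share of their counts (%) for 276 hairpins. Right, 5p share (%) of hairpins of 6 clusters in E14_P25 (blue) and E14_P33 (orange), with bars for the 95% Clopper-Pearson interval. Most hairpins pile up at the ends, miR-293 and miR-106b lie near the middle, and miR-290a moves from 81.1% to 69.4%.

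The leading arm tended to begin with U. Among 5p-dominant hairpins with both sequences, the leading strand began with U in 39 of 59 (66.1%) and the lesser strand in 9 of 59 (15.3%). Among 3p-dominant hairpins it was 33 of 65 (50.8%) against 11 of 65 (16.9%). Across both sets, the leading strand had more A or U in its first 4 bases than the lesser strand in 66, the same number in 35 and fewer in 23. These are counts over hairpins, which include paralogues that share sequence, and no test was made on them.

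Arm shares were close between the libraries. In 181 of the 276 hairpins they lay within 2 percentage points, in 18 they differed by more than 10 points, and in 5 the leading arm changed. The intervals of the 2 libraries did not overlap for 19 hairpins. Of the 18 hairpins over 10 points apart, only miR-290a, miR-329 and miR-32 were among these 19, and none of the 5 with a changed leading arm was. miR-290a had 2859 5p and 665 3p counts in P25 and 2449 and 1082 in P33. Others of the 19, with high counts, were miR-292a, miR-183, miR-27b, miR-434 and miR-25. In them smaller shifts exceeded counting error, as in miR-183 with 97.8% and 97.2%. miR-341, in Rian, gave 5p shares of 5.29% and 1.99%, from 377 and 127 5p counts beside 6749 and 6262 3p counts.

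The 2 libraries ranked the repertoire alike. Their 10 and 20 highest entries were the same, and they shared 47 of the 50 highest and 97 of the 100 highest. Over the 459 entries with a mean of at least 10 CPM, log2 CPM correlated with Pearson's r of 0.986 and Spearman's rho of 0.979, a description across entries that share 2 libraries and not a result over replicates. Of these entries 303 (66.0%) lay within 1.25-fold. The log2 ratio of P33 to P25, with 0.5 CPM added to each, had an SD of 0.54 among entries of 10 to 100 CPM, 0.48 from 100 to 1000, 0.28 from 1000 to 10000 and 0.12 above, where counting alone gives 0.28, 0.09, 0.03 and 0.01. The libraries therefore differed by more than counting error at every level, with a chi-square of 24.0 per degree of freedom over 626 entries. Much of the SD from 100 to 1000 CPM came from 1 entry, miR-5126, with a mean of 633 CPM and a log2 ratio of -4.02.

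Past 2-fold lay 12 of the 459 entries (2.61%), 10 of them lower in P33 (2.18%). The largest shift was that of miR-5126, one of a list of entries that may stem from fragments of other RNAs, with 2815 counts in P25 and 142 in P33 (log2 ratio -4.02). miR-142a, a miRNA of blood cells, was lower in both arms, with 1366 and 486 counts of 5p (-1.21) and 248 and 92 of 3p (-1.14). The lesser arm miR-341-5p had 377 and 127 counts (-1.28). The other 6 lower entries were miR-466f, miR-466h-3p, miR-669l-5p and miR-466f-5p of the Sfmbt2 region, miR-181a-5p (56 and 22 counts) and miR-744-3p (43 and 17). Of these, miR-466f and miR-466f-5p also have a place outside the Sfmbt2 region, so their counts cannot be assigned to it alone. Higher in P33 were miR-692 with 6 and 67 counts (3.52) and miR-6538 with 38 and 125 (1.96). Entries of this paragraph with a mean under 100 CPM were named after their values were seen. Short of 2-fold, the entries of at least 100 CPM with the highest ratios were miR-290a-3p (0.98), miR-92a-1-5p (0.70) and miR-27b-5p (0.70), the lesser arms of hairpins whose other arm had log2 ratios closer to 0.

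The entries of the Sfmbt2 region were lower in P33 as a group. This large rodent miRNA cluster, which includes the miR-466, miR-467 and miR-669 families, lies in introns of the imprinted gene Sfmbt2 at chr2:10465287-10518279 and holds 119 annotated hairpins. It held 1.87% of the counts in P25 and 1.21% in P33 (1.54% ± 0.465). Its highest entry, miR-466b-3p, had 3816 and 2646 CPM, miR-669a-5p had 3517 and 2377, and miR-467a-5p 2812 and 1862. The counts of miR-669a-5p were only multiples of 12 and those of miR-467a-5p of 10, their numbers of places. miR-466b-3p has 8 places, and its counts were 8998 and 5143, beside 1124 and 645 for miR-466p-3p with 1 place. Whether reads were counted once per place was not tested, so these levels, their order and the region's share may partly reflect the number of places. All 43 entries with at least 10 CPM were lower in P33, where 50.3% of all 459 entries were lower by any amount, and 4 of the 43 were past 2-fold. Their median log2 ratio was -0.76, with a range from -1.23 to -0.18, beside a median of -0.004 over all entries. The median was -0.78 with TMM factors and with DESeq2 size factors. Since many of these entries have several places and near-identical sequences, their reads are not independent. The 27 with 1 place were all lower as well, but they can repeat the same reads and give no separate support. For example, miR-467b-5p with 1 place had 663 and 362 counts, and miR-467a-5p with 10 places had 6630 and 3620. The set was chosen with earlier results of these data known. Markers of fibroblasts or feeder cells were lower in P33 too, in 9 of 12 entries with at least 10 CPM and with a median log2 ratio of -0.25 (-0.27 with TMM factors), and their part in the difference was not tested.

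The other clusters differed less between the libraries, in either direction. Of 14 entries in the stem cell cluster with at least 10 CPM, 13 were higher in P33, with a median log2 ratio of 0.10 and none past 2-fold. Of 26 entries of the miR-17 clusters, 24 were higher, with a median of 0.18. The Dlk1-Dio3 region had 47 higher and 32 lower of 79, with a median of 0.09. The miR-183 cluster had 3 higher and 3 lower, with a median of 0.06. Summed shares were lower in P33 for miR-15b/16-2, with 2.62% and 2.42%, and for the miR-30 clusters, with 2.79% and 2.61%. Without the Sfmbt2 and fragment-like entries, 44.9% of the remaining 408 entries were lower in P33, with a median log2 ratio of 0.04.

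**Figure D5:**
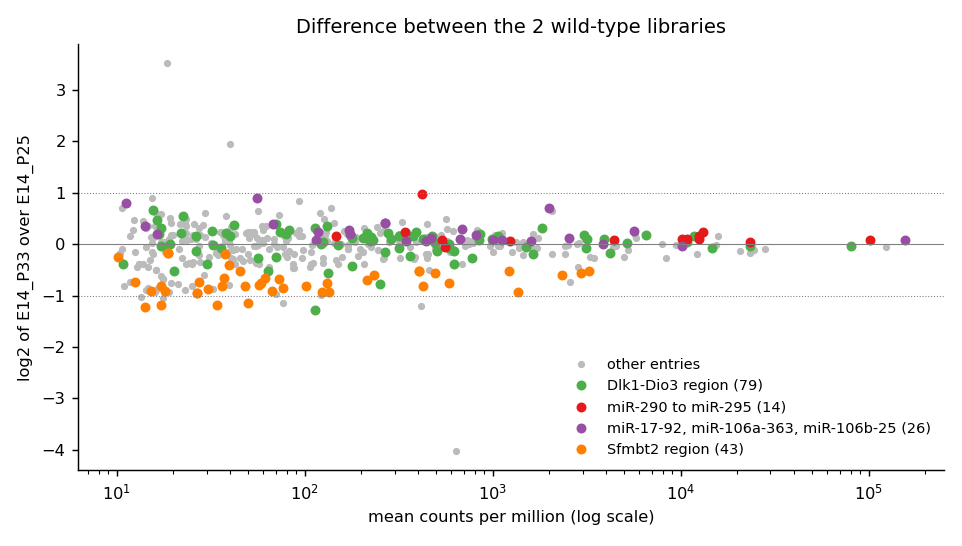
Log2 ratio of E14_P33 over E14_P25 against mean CPM (log scale) for 459 entries with at least 10 CPM. Each dot is 1 entry, coloured by cluster, and dotted lines mark 2-fold. The 43 Sfmbt2 entries (orange) all lie below 0, and miR-5126 is the lowest dot. The miR-290 to miR-295 entries lie near 0 except miR-290a-3p at 0.98.

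The lists of markers of other cell types held from 0.00271% to 4.53% of the counts on average. The list for fibroblasts or feeder cells held 4.64% and 4.42% of the counts (4.53% ± 0.158), with 18 of 22 entries counted. miR-22-3p made up 51.8% of it and miR-27b-3p most of the rest, and miR-143-3p had 3287 and 2414 CPM and miR-21a-5p 2575 and 2247. By contrast, miR-214 had no count in either arm, miR-199a-5p had 6 and 0 counts and miR-199a-3p averaged 110.0 CPM ± 19.5. The neural list held 0.327% and 0.357%, led by miR-128-3p with 1532 and 1745 CPM. In it miR-9-5p had 751 and 752 CPM, miR-124-3p 472 and 492, and miR-138-5p 217 and 216, and both arms of miR-137 had no count. The blood list held 0.183% and 0.143%, led by miR-150-5p with 1078 and 1054 CPM, and both arms of miR-223 had no count. The muscle list held 0.00301% and 0.00242%, with no count of miR-206. The epithelial list held 0.255% and 0.242%, led by miR-200b-3p with 1060.3 and 949 CPM, and the list for liver, gut and endoderm 0.163% and 0.157%, led by miR-192-5p with 1412 and 1338 CPM. The let-7 family with miR-98, whose maturation LIN28 blocks in stem cells, held 0.181% and 0.199% (0.19% ± 0.0125), with let-7f-5p at 958 and 1053 CPM and let-7a-5p at 236 and 282. The label of mouse embryonic stem cells thus matches part of the markers, with miR-290 to miR-295 high and let-7 low. The miR-302 and miR-367 hairpins, also stem cell markers, held only 0.00527% of the counts. In bulk RNA, a small number of other cells and a low level in every cell cannot be told apart. The fragment-like list held 0.606% of the counts in P25 and 0.383% in P33, and its part in the differences between the libraries was not tested.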

How the data were processed

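Per the labels, small RNA was sequenced in 2 wild-type libraries. Per the submitters' processing notes, reads were aligned with Bowtie to mm10. The authors deposited raw read counts per mature miRNA. No source used here gives tool versions, how reads were counted, how reads with several places were treated or which miRBase release was used. Depth was 2357868 and 1943868 counts. Counts were divided by the column total to give CPM. The other 8 libraries served only to find common divisors of counts. Names were joined to RefSeq sequences and GENCODE M21 positions on GRCm38.p6. A sequence was found for 1623 of 1907 entries and no place for 6. Values are means and SDs over the 2 libraries, with 95% Clopper-Pearson intervals for shares (scipy 1.17.1), and nothing was tested. Scripts ran in Python 3.11.15 and were checked on simulated data. TMM factors (edgeR 4.0.16) and size factors (DESeq2 1.42.0, R 4.3.3) were alternative scalings. Entries were named by rule: the 20 highest, all hairpins of 6 clusters, the highest and lowest of other clusters, the 10 highest clusters and seeds, the most counted, most even and most 3p-led hairpins, the 8 highest and 8 lowest ratios above 100 CPM, and marker members. Other hairpins of the Dlk1-Dio3 region were named after their values were seen. The libraries, lists and clusters were chosen with earlier results of these data known.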

Additional observations from a re-analysis of the deposited data

How the results depend on the processing

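With 2 libraries of 1 group, the error is known only roughly, and levels under the floor of 3 counts cannot be ranked. No paired analysis was possible because only 1 group was described. Without the fragment-like entries the 10 highest held 60.8% and the Dlk1-Dio3 region 19.1%, and with counts divided by their common divisor these were 61.0% and 19.2%. With counts divided by the number of places, an alternative chosen after seeing the data, the 10 highest held 57.7%, the miR-290 to miR-295 cluster 21.9%, the miR-17 clusters 12.5%, the Dlk1-Dio3 region 21.8% and the seeds AAGUGCU and AAGUGCC 13.6%. The 2 position clusters of the Dlk1-Dio3 region that hold miR-127 and miR-410 held 18.7% together. They leave out the hairpins of Rian, with 0.384%. The log2 spread within a polycistron, from the leading arm only, was 7.57 for miR-290 to miR-295, 8.82 for miR-17-92, 7.84 for miR-106a-363, 3.93 for miR-106b-25 and 8.40 for the miR-183 cluster. With shared entries left out but their hairpins kept through the other strand, it was 2.46 for miR-17-92 and 9.03 for miR-106a-363. The 9.03 sets miR-363 against what was left of miR-92a-2, its lesser strand alone, and is not a wider spread among intact hairpins. Hairpins of miR-106a-363 with no shared entry ran from miR-18b with a mean of 854 CPM to miR-363 with 5871 CPM. The share of entries past 2-fold was 11.5% of 724 at a minimum of 1 CPM, 1.27% of 237 at 100 CPM and 20.4% of 1055 with no filter, and 16.1% of 459 were past 1.5-fold. The chi-square per degree of freedom was 38.9 over entries with at least 100 counts and 14.7 with no filter. Apart from leaving out a library, 21 alternative values stayed within 1 SD, or within 1.5 times for counts, and 23 did not. Leaving out 1 of 2 libraries gives the other library's value, which always lies within 1 SD of the mean, and says nothing about stability. The cause was not tested, except that a filter changes the number of entries compared.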
